A study of Mus musculus with 8 samples.

Results

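Interferon regulatory factors (IRFs) are transcription factors that share an N-terminal DNA-binding domain and bind repeats of GAAA in the control regions of interferon genes and of genes that interferons induce. Their 8 genes Irf1, Irf2, Irf3, Irf4, Irf5, Irf7, Irf8 and Irf9 were followed in lymph nodes that drain a B16 melanoma in mice. Probes were taken by gene symbol and kept where the detection p-value was under 0.05 on at least 4 of 8 arrays. All 15 probes of these genes passed, of 19462 kept probes of the array, and the 8 genes were among 10543 genes with a kept probe.

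RNA of whole draining lymph nodes was hybridised to mouse bead arrays. In 4 mice the B16 tumor, grown from a melanoma cell line placed under the skin, had been injected once with 3M-052, a small molecule agonist of Toll-like receptors 7 and 8, and in 4 other mice with its vehicle. Nodes of both groups were taken 4 days after the injection, 1 array per mouse. The study's general methods name female C57BL/6 mice at 6 to 8 weeks of age, and these details were not restated for the arrays. One entry of the labels calls the extracted tissue tumor, while the tissue labels and the methods name lymph node. The question of the comparison was what a single injection into the tumor changed in the node that drains it.

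In the resting state several IRF proteins sit in the cytoplasm until a sensor of nucleic acids is engaged. Toll-like receptors 7 and 9 signal through Myd88 to Irf5 and Irf7, and cytosolic sensors signal through the kinase Tbk1 to Irf3 and Irf7, which switch on type I interferon genes. Interferon then acts through Irf9, which joins Stat2 at the interferon-stimulated response element, and Irf7 is itself one of the genes induced. Irf1 activates and Irf2 mostly restrains promoters downstream of interferon-gamma. Irf4 and Irf8 work mainly in the development of lymphoid and myeloid cells, Irf4 in plasma cells and activated T cells, and Irf8 in B cells, monocytes and dendritic cells.

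Values are log2 intensities after background correction and quantile normalization across arrays, and each fold change is 3M-052 minus vehicle. Of all kept probes, 546 were higher and 446 lower with 3M-052 at an adjusted p under 0.05. Detected probes numbered 17817 to 19773 on 3M-052 arrays and 19094 to 20315 on vehicle arrays. The arrays numbered 4 in both groups stood apart, with a lowest intensity of 45.5 in 3M-052 and 44.9 in vehicle, where the other arrays had 36.6 to 39.5. B cell markers, which define much of a lymph node, were detected in both groups, with a mean level of 9.87 to 10.12 in 3M-052 and 9.93 to 10.16 in vehicle over 7 genes. T cell markers averaged 10.84 to 11.37 over 6 genes in 3M-052 nodes and 11.72 to 12.15 in vehicle nodes, and 4 of the 6 (Cd3e, Thy1, Cd8b1 and Cd3g) were lower. In whole nodes, more or fewer cells of a type and more or less RNA per cell cannot be told apart.

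Irf7 and Irf4 were higher in 3M-052 nodes, at 5.04-fold and 1.65-fold, and no IRF gene was lower. Thus 2 of the 8 genes (25%) were called higher, where 2.44% of all genes were, and 0 were called lower, where 2.27% of all genes were. The other 6 genes did not pass. At an unadjusted p under 0.05, where 7.9% of all genes were higher and 12.5% lower, Irf1 was also on the lower side, 1 of 8 genes. The median fold change of the 8 genes was 0.26 on the log2 scale, against -0.03 over all genes. In Irf7 and Irf4 every 3M-052 array lay above every vehicle array, as in 5.28% of all genes, and in no IRF gene did the brightest probe lie below on every 3M-052 array, as in 7.7% of all genes. Adjusted p-values are from limma with Benjamini-Hochberg adjustment over all kept probes, and the exact permutation test of 4 against 4 arrays, which was two-sided, cannot go below 0.029.

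**Figure D1:**
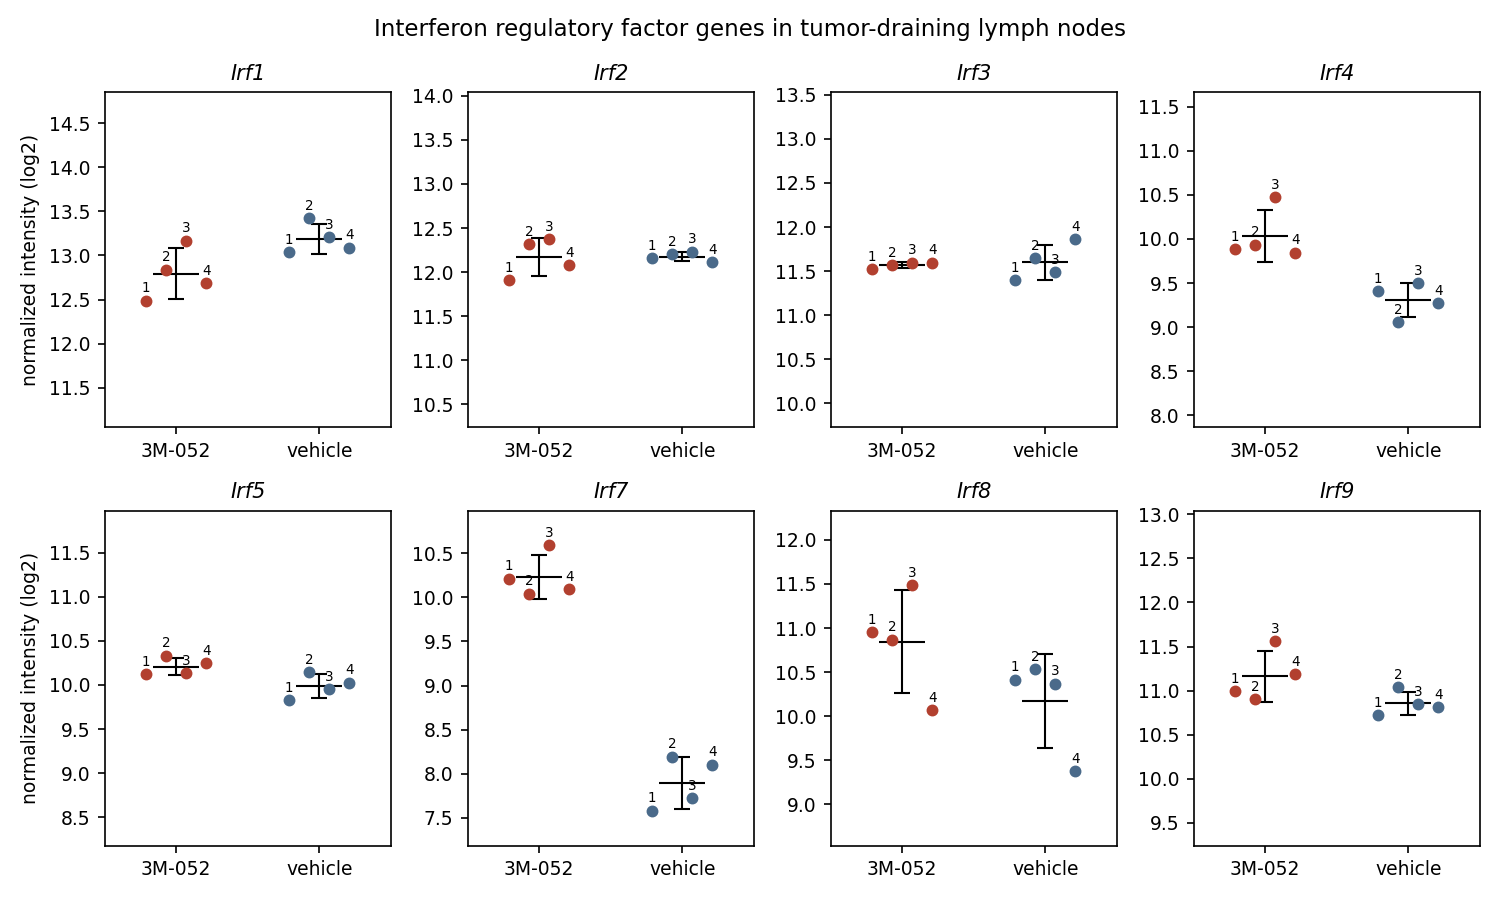
Normalized intensity (log2) of each IRF gene's brightest probe, one panel per gene, with 3M-052 arrays left and vehicle arrays right. Points are single mice with their replicate number, and bars are mean and SD (n = 4 each). Every panel spans the same number of log2 units, and only Irf7 and Irf4 show groups without overlap.

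Among the IRFs, Irf7, the factor that drives most of the interferon-alpha genes, had the largest difference. Normalized intensities of 1186, 1053, 1540 and 1092 were measured for 3M-052 replicates 1 to 4, against 192, 293, 211 and 275 in vehicle replicates 1 to 4. On the log2 scale these were 10.21, 10.04, 10.59 and 10.09 in 3M-052 nodes, against 7.58, 8.19, 7.72 and 8.10 in vehicle nodes. The groups were separated by a gap of 1.85 between the lowest 3M-052 and the highest vehicle array, and within each group the arrays lay closer together than that. Mean intensity was 1218 ± 222 with 3M-052 and 243 ± 48.8 with vehicle (SD, n = 4 each). The log2 fold change was 2.33 with a standard error of 0.19 and a 95% confidence interval of 1.91 to 2.75 (adjusted p = 0.00012 by limma, exact permutation p = 0.029). By p-value its probe ranked 11 of 19462.

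The Irf7 gene lies on chromosome 7 of GRCm38.p6, from 141263183 to 141266499. Its promoter is shown because Irf7 carries the main difference. The window is RefSeq's, 250 bases before to 50 after the start, read 5′ to 3′ on the minus strand at chr7:141266375-141266674, with the TATAAA box in capitals.

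Irf7: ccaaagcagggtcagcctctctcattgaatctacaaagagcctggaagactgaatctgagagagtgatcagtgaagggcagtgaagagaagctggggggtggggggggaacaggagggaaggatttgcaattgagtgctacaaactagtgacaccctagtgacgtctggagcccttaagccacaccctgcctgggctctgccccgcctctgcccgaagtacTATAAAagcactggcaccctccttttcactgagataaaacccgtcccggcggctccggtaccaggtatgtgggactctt

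The window was searched on both strands for the core of the interferon-stimulated response element (GAAANNGAAA, which 3.44% of 32841 promoters of this length hold) and for the gamma-activated site (TTCNNNGAA, in 8.3%), and neither was found in these letters. TATAAA, searched after the values were known, starts 29 bases before the start in Irf7. On the sense strand 1.99% of promoters begin it between 40 and 20 bases before the start. On both strands and at any place in the window 13.6% hold it. A match is a string of letters only.

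The 5 genes whose values over the 8 arrays were most like those of Irf7 were Ifit3, Cdhr2, Mx2, Oas1g and Rsad2, by the root mean square difference of log2 values centered on each gene's mean. It was 0.20 for Ifit3, an interferon-induced antiviral protein, 0.21 for the cadherin Cdhr2, 0.25 for the antiviral GTPase Mx2, 0.27 for the oligoadenylate synthetase Oas1g and 0.28 for Rsad2, or viperin. The median over 10535 genes was 1.24. Cdhr2 was detected on 4 of 4 3M-052 arrays but 1 of 4 vehicle arrays, so its vehicle values lie near the background. Each of the 5 was higher with 3M-052, by 1.83 (Oas1g) to 2.68 (Rsad2) on the log2 scale (adjusted p = 0.00037 for Oas1g and 0.00039 for Rsad2 by limma). The measure keeps the difference between groups, so genes picked as most like Irf7 are higher through the way they were picked.

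Irf9, the DNA-binding subunit of the complex that type I interferon activates, was measured by 2 probes and neither passed. Its brightest probe read 10.99, 10.91, 11.56 and 11.18 in 3M-052 nodes, against 10.72, 11.04, 10.85 and 10.81 in vehicle nodes. The groups overlapped, with 3M-052 replicate 3 at the top, and 3 of 4 same-numbered comparisons were positive. The log2 fold change was 0.31, with an interval of -0.04 to 0.66 (adjusted p = 0.316 by limma), and 0.34 by the second probe (adjusted p = 0.398). Stat2, its partner there, differed by 0.87 on the log2 scale and missed the threshold at an adjusted p of 0.0507 by limma. In the fit that blocks on replicate number Stat2 passed at an adjusted p of 0.0124 (limma), while Irf9 had 0.181.

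Irf3, which sits in most cells as a latent factor, was measured by 3 probes and none passed. Its brightest probe read 11.52, 11.57, 11.60 and 11.60 in 3M-052 nodes, against 11.40, 11.64, 11.49 and 11.86 in vehicle nodes. All 3M-052 values lay between the vehicle extremes. A log2 fold change of -0.03 was fitted, with an interval of -0.31 to 0.26 (adjusted p = 0.936 by limma), and its 2 other probes gave 0.00 and -0.15 (adjusted p = 0.995 and 0.733).

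Irf5, which Toll-like receptors use to induce inflammatory cytokines, was measured by 1 probe and did not pass. It read 10.12, 10.33, 10.13 and 10.25 in 3M-052 nodes, against 9.82, 10.15, 9.95 and 10.02 in vehicle nodes. Each 3M-052 array was above the vehicle array of the same number, and the groups overlapped through vehicle replicate 2. Its fitted log2 fold change was 0.22, with an interval of -0.07 to 0.51 (adjusted p = 0.392 by limma, exact permutation p = 0.086).

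Irf1, an activator of antigen presentation genes, was measured by 5 probes with a log2 fold change of -0.48 to -0.40, and none passed. The brightest probe read 12.49, 12.84, 13.17 and 12.68 in 3M-052 nodes, against 13.04, 13.42, 13.21 and 13.09 in vehicle nodes. 3M-052 replicate 3 lay among the vehicle arrays and the other 3M-052 arrays below all of them. The log2 fold change was -0.40 with a standard error of 0.16 and an interval of -0.74 to -0.05 (adjusted p = 0.176 by limma, exact permutation p = 0.086). In 1 other probe every 3M-052 array was below every vehicle array, by a gap of 0.089, at a log2 fold change of -0.45 (adjusted p = 0.0813 by limma). Probes of a gene read the same RNA and are not replicates. Without 3M-052 replicate 3 the brightest probe gave -0.52 and passed at an adjusted p of 0.0498 (limma), and it did not pass with any other single array left out. With median centering in place of quantile normalization it gave -0.11 (adjusted p = 0.751 by limma).

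Irf2, which competes with Irf1 for the same sites, had a log2 fold change of -0.01 and an interval of -0.29 to 0.28 (adjusted p = 0.985 by limma). It read 11.91, 12.31, 12.38 and 12.08 in 3M-052 nodes, against 12.16, 12.20, 12.23 and 12.11 in vehicle nodes. Vehicle arrays lay inside the 3M-052 range. The promoter stretches of this pair that hold a searched motif are shown for comparison with Irf7, with the motifs in capitals. That of Irf1 (chr11:53769904-53769954, plus strand) holds a gamma-activated site, and that of Irf2 (chr8:46739495-46739545, plus strand) holds a response element core followed by a gamma-activated site.

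Irf1: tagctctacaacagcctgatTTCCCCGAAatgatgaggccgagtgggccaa
Irf2: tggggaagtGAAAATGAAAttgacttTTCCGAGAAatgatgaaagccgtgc

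Of the 15 listed genes of class I presentation and other known Irf1 targets, 14 were tested and none passed in limma, with a median log2 fold change of 0.10 against -0.03 over all genes. At an unadjusted p under 0.05, 1 of the 14 was higher (the peptide transporter subunit Tap1) and 1 lower (the lymphocyte growth factor Il15). Over all genes 7.9% were higher and 12.5% lower at that threshold. Blocked by replicate number, Il15 passed, at a log2 fold change of -0.65 (adjusted p = 0.0111 by limma), in a fit that called 7.69% of all genes lower.

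**Figure D2:**
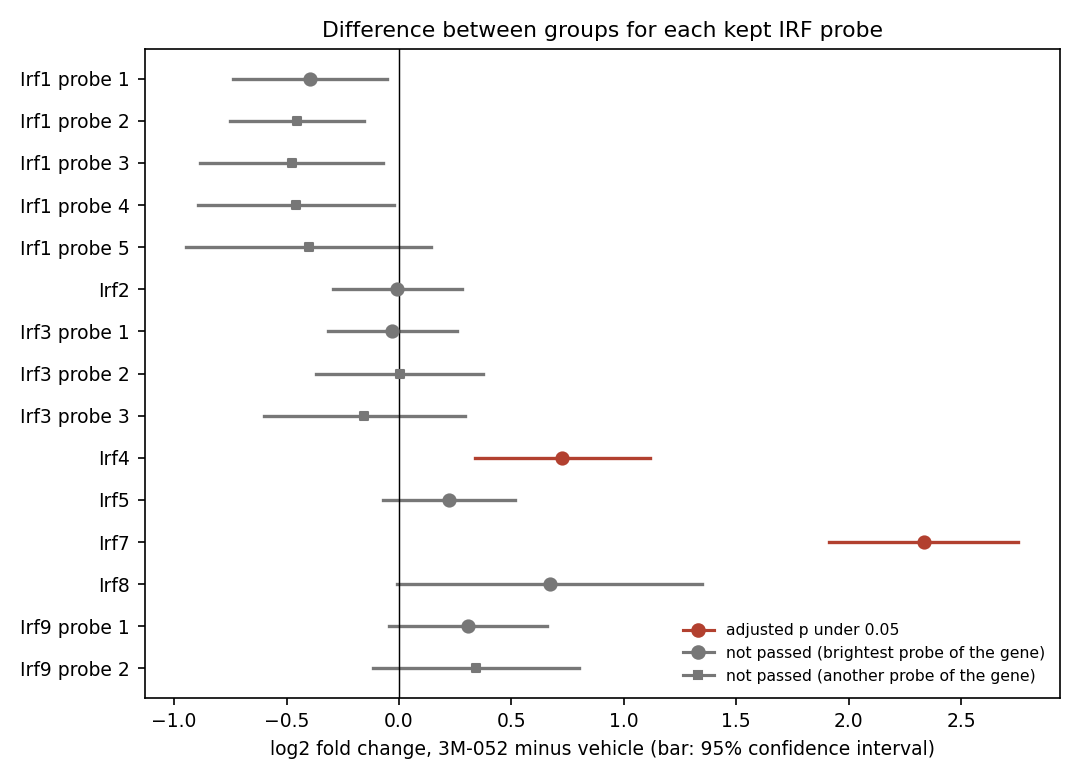
Log2 fold change (3M-052 minus vehicle) of each of the 15 kept IRF probes with its 95% confidence interval, circles for the brightest probe of a gene and squares for the others, red where the adjusted p was under 0.05. Irf7 stands at 2.33 and Irf4 at 0.73, and the 5 probes of Irf1 all lie below 0.

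Irf4, required for plasma cell formation and class switching, was the other gene called higher. Normalized intensities of 946, 979, 1422 and 920 were measured for 3M-052 replicates 1 to 4, against 680, 533, 722 and 617 in vehicle replicates 1 to 4. On the log2 scale these were 9.89, 9.93, 10.47 and 9.85 in 3M-052 nodes, against 9.41, 9.06, 9.50 and 9.27 in vehicle nodes. 3M-052 replicate 3 was well above the other 3 treated nodes, and the groups were separated by a gap of 0.35. Mean intensity was 1067 ± 238 with 3M-052 and 638 ± 82.3 with vehicle (SD, n = 4 each). The log2 fold change was 0.73 with a standard error of 0.18 and an interval of 0.34 to 1.12 (adjusted p = 0.0397 by limma, exact permutation p = 0.029). The call was lost when any single array was left out, with an adjusted p (limma) of 0.0772, 0.0512, 0.0524 and 0.0536 without 3M-052 replicates 1 to 4 and of 0.101, 0.140, 0.0626 and 0.0558 without vehicle replicates 1 to 4, at a log2 fold change of 0.58 to 0.79. Blocking on replicate number gave Irf4 an adjusted p of 0.0078 (limma).

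Irf8, needed for monocytes and for dendritic cells that cross-present, had a difference of similar size and more spread, and did not pass. It read 10.95, 10.87, 11.49 and 10.07 in 3M-052 nodes, against 10.41, 10.54, 10.37 and 9.38 in vehicle nodes. The arrays numbered 4 were the lowest of both groups, and each 3M-052 array was above the vehicle array of its number, by 0.54, 0.33, 1.12 and 0.69 for numbers 1 to 4. Its fitted log2 fold change was 0.67, with a standard error of 0.31 and an interval of -0.01 to 1.35 (adjusted p = 0.252 by limma, exact permutation p = 0.143). Blocking on replicate number brought the standard error to 0.14 and Irf8 passed (adjusted p = 0.0150 by limma), so that 3 IRF genes were higher and 0 lower in that fit, which called 5.98% of all genes higher and 7.69% lower.

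The promoters of both genes also hold TATAAA on the sense strand. It starts 26 bases before the start in Irf4 and 31 bases before it in the first of 2 listed promoters of Irf8. They are shown for that likeness to Irf7, with the box and, for Irf8, a pair of gamma-activated sites in capitals. TATAAA was chosen after the values were known, and its part in them was not tested. The Irf4 promoter holds neither a response element core nor a gamma-activated site. The stretch of Irf4 is chr13:30749173-30749282 and that of Irf8 is chr8:120736178-120736338, both on the plus strand of GRCm38.p6.

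Irf4: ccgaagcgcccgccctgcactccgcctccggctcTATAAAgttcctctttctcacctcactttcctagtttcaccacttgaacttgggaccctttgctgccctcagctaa
Irf8: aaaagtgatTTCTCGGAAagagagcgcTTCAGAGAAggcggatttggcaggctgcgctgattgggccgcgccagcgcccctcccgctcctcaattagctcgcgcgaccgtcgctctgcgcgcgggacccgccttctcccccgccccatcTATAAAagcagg

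No searched motif was found in the listed promoters of Irf3, Irf5 and Irf9. All 8 genes were matched in RefSeq by symbol, with 11 listed promoters.

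Genes of the plasma cell program, in which Irf4 acts, were higher in 6 of 7 tested, against 2.44% of all genes, with a median log2 fold change of 1.61. Mzb1, a chaperone of antibody assembly, had an intensity of 12158 ± 2645 with 3M-052 and 4073 ± 1396 with vehicle (SD, n = 4 each), a log2 fold change of 1.61 (adjusted p = 0.0028 by limma). Xbp1, the transcription factor of the secretory program, was higher by 0.75 (adjusted p = 0.0071). Derl3, which removes misfolded proteins from the endoplasmic reticulum, was higher by 2.25 (adjusted p = 0.0079) and was detected on 4 of 4 3M-052 arrays but 1 of 4 vehicle arrays. Without vehicle replicate 2, only these 3 of the 7 passed. Tnfrsf17, another gene of the 6, was detected on 4 of 4 3M-052 arrays but 1 of 4 vehicle arrays, and its groups overlapped. The list was chosen with these results known and is no independent evidence on Irf4.

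Dendritic cell genes tied to Irf8 did not pass in limma (0 of 6, median -0.69), while 4 (Id2, Cadm1, Clec9a and Tlr11) were lower at an unadjusted p under 0.05, as were 12.5% of all genes. Blocked by replicate number, 2 of the 6 passed, both lower in 3M-052 nodes, in a fit that called 7.69% of all genes lower. They were Id2, an inhibitor of helix-loop-helix factors, at a log2 fold change of -1.18 (adjusted p = 0.0034 by limma) and the dendritic cell receptor Clec9a at -0.73 (adjusted p = 0.0348). Without vehicle replicate 3, Id2 alone passed, at -1.60 (adjusted p = 0.0191). Irf8 itself had a positive fold change in each of these fits.

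Markers of other cells moved with the same groups. Of 7 tested markers of plasmacytoid dendritic cells, which make large amounts of Irf7-dependent interferon, 1 was higher (Ly6d) and 3 were lower (Siglech, Pacsin1 and Cox6a2), with a mean level of 8.98 to 9.60 in 3M-052 nodes and 9.27 to 9.64 in vehicle nodes. Siglech, a surface receptor of these cells, had a log2 fold change of -1.44 (adjusted p = 0.0309 by limma). With 1 array left out its fold change was -1.71 to -1.14. The call was lost without 3M-052 replicate 1 or 2 or vehicle replicate 1 or 2 (adjusted p up to 0.108). Pacsin1 was lost in 5 of 8 fits with an array left out (without 3M-052 replicates 1 or 4 or vehicle replicates 1, 2 or 3, up to 0.107). Cox6a2 was lost in 6 of 8 (without 3M-052 replicates 1, 2 or 3 or vehicle replicates 1, 2 or 4, up to 0.144). Ly6d was lost in 2 of 8 (without 3M-052 replicate 1 or vehicle replicate 2, up to 0.0540). As the mean of all kept probes, Siglech (-1.07, adjusted p = 0.133 by limma) and Pacsin1 (-0.44, adjusted p = 0.123) did not pass. With median centering Pacsin1 and Cox6a2 did not pass (adjusted p = 0.0544 and 0.0519). Of 5 monocyte and macrophage markers 1 was higher, the antibody receptor Fcgr1, by 1.96 (adjusted p = 0.00089 by limma). The other 4 did not pass, with log2 fold changes of 0.88 (Adgre1), 0.17 (Csf1r), -0.01 (Lyz2) and -0.18 (Cd14). The mean level of the 5 was 8.99 to 9.42 in 3M-052 nodes and 8.45 to 8.88 in vehicle nodes, with the largest differences in Fcgr1 and Adgre1. Red blood cell markers were lower in 2 of 2, Hba-a1 by a log2 fold change of -1.76 (adjusted p = 0.0028 by limma) and Alas2 by one of -1.28 (adjusted p = 0.0087), with mean levels of 7.73 to 8.55 in 3M-052 nodes and 9.41 to 9.81 in vehicle nodes, which do not overlap. Melanocyte markers (0 of 3 called) had a mean level of 4.95 to 5.96 in 3M-052 nodes and of 10.02 in vehicle replicate 3, against 5.33 to 6.23 in the other vehicle nodes. Without vehicle replicate 3 Irf7 had a log2 fold change of 2.27. In the blocked fit Cd3d of T cells (-0.74, adjusted p = 0.0056), Prf1 of NK cells (-0.53, adjusted p = 0.0251) and Krt14 of keratinocytes (-2.28, adjusted p = 0.0168) were lower as well. No B cell marker passed (0 of 7, median 0.00). The part of these cells in the IRF values was not tested.

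Fat cell markers varied between nodes, from 5.75 to 8.20 in 3M-052 and from 6.79 to 10.35 in vehicle, with 0 of 7 called and a median log2 fold change of -2.08. With their mean level as a covariate Irf7 kept a log2 fold change of 2.14 (adjusted p = 0.0027 by limma), while Irf4 had 0.60 and did not pass (adjusted p = 0.369). In that fit, which had fewer calls over all probes (158 higher and 27 lower), 6 of the interferon effector genes were higher and 0 of the plasma cell genes or of the sensors and kinases. Siglech (adjusted p = 0.322), Cd3e (0.0572), Thy1 (0.0894) and Cd8b1 (0.105) did not pass in it either.

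None of the 4 tested interferon genes passed, and 4 of the sensors and kinases upstream of the IRFs did. Of 20 listed interferon genes 6 had a named probe and 4 were tested, so most, Ifnb1 among them, were not read here. The 4 had a median log2 fold change of 0.27, and none was past an unadjusted p of 0.05. Ifna1 was read near the background, at a mean intensity of 37.3 with 3M-052 and 38.6 with vehicle, and was detected on 3 of 4 arrays in each group. Ifng was detected on 3 of 4 vehicle arrays. Of 19 tested sensors, adaptors and kinases, 3 were higher and 1 lower, against 2.44% and 2.27% of all genes. In the blocked fit the DNA sensor Cgas was higher too, at a log2 fold change of 0.52 (adjusted p = 0.0493 by limma). Tlr7, the receptor that 3M-052 engages, had an intensity of 1098 ± 231 with 3M-052 and 457 ± 62.2 with vehicle (SD, n = 4 each), a log2 fold change of 1.25 (adjusted p = 0.0029 by limma, and 0.0511 with the fat marker covariate). Dhx58, a cytosolic RNA helicase that interferon induces, was higher by 1.56 (adjusted p = 0.0065, and 0.111 with that covariate). Unc93b1, which carries nucleic acid receptors to endosomes, was higher by 0.57 (adjusted p = 0.0450), a call that no fit with an array left out kept (adjusted p = 0.0553 to 0.148). Ikbke, a kinase of Irf3 and Irf7, was lower, at a log2 fold change of -0.66 (adjusted p = 0.0492). With 1 array left out, this call was kept only without 3M-052 replicate 3 or vehicle replicate 4 (up to 0.170 without another array). Over all alternatives it was kept in 7 of 21. The kinase Tbk1 had a log2 fold change of -0.06 (adjusted p = 0.873) and the adaptor Myd88 had 0.15 (adjusted p = 0.590).

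Of 16 tested interferon receptors, JAK-STAT members and feedback genes, 2 were higher and 0 lower, against 2.44% and 2.27% of all genes. Their median log2 fold change was -0.12. Ifnlr1, the specific chain of the interferon-lambda receptor, had an intensity of 797 ± 293 in 3M-052 nodes and 117 ± 18.0 in vehicle nodes (SD, n = 4 each), a log2 fold change of 2.69 (adjusted p = 0.00036 by limma). Usp18, which removes Isg15 from proteins and dampens the type I interferon receptor, was higher by 1.46 (adjusted p = 0.0116, and 0.169 with the fat marker covariate). In the blocked fit the interferon-gamma receptor chain Ifngr2 was lower, at a log2 fold change of -0.47 (adjusted p = 0.0416). Without 3M-052 replicate 3 the kinase Jak2 was lower, at -0.78 (adjusted p = 0.0351).

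Among 14 tested partners and regulators of IRF proteins, 1 was higher and 0 lower, against 2.44% and 2.27% of all genes. Batf2, which pairs with Irf1 in macrophages, was higher by 0.98 on the log2 scale (adjusted p = 0.0467 by limma). Of the fits with 1 array left out, only those without 3M-052 replicate 2 or vehicle replicate 4 kept this call (up to 0.144 without another array). Over all alternatives it was kept in 10 of 21. Batf, which binds with Irf4 at composite sites, had 0.78 (adjusted p = 0.109). In the blocked fit Batf passed at 0.0252, and Irf2bp1, a corepressor that binds Irf2, passed on the lower side with a log2 fold change of -0.47 (adjusted p = 0.0369). That fit called 5.98% of all genes higher and 7.69% lower.

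Downstream, 14 of 19 tested interferon effector genes were higher, against 2.44% of all genes, and 0 lower, against 2.27%. Their median log2 fold change was 1.69, and all 19 values were above 0. Oas3, one of the 14, was detected on 4 of 4 3M-052 arrays but 0 of 4 vehicle arrays. It passed the filter through the 3M-052 arrays alone, where it was high. Isg20, an exonuclease that degrades viral RNA, had a log2 fold change of 2.23 (adjusted p = 0.00032 by limma). Rsad2 was higher by 2.68 (adjusted p = 0.00039). The ubiquitin-like modifier Isg15 had an intensity of 2797 ± 758 with 3M-052 and 545 ± 196 with vehicle (SD, n = 4 each), a log2 fold change of 2.37 (adjusted p = 0.00053). With 1 array left out, 11 to 14 of the 19 passed. In the blocked fit, which called 5.98% of all genes higher, 16 passed, with the antiviral GTPase Mx1 (log2 fold change 1.41, adjusted p = 0.0217 by limma) and Trim30a (1.11, adjusted p = 0.0064) added.

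Inflammatory cytokine genes tied to Irf5 split, with 2 of 6 higher and 1 lower, against 2.44% and 2.27% of all genes. The macrophage chemokines Ccl4 and Ccl3 were higher, by 2.58 for Ccl4 (adjusted p = 0.00076 by limma) and 2.45 for Ccl3 (adjusted p = 0.0034). Ccl5, a chemokine that T cells and NK cells make in quantity, was lower, at a log2 fold change of -0.99 (adjusted p = 0.0260), lost without 3M-052 replicate 4 or vehicle replicate 1, 2 or 3 (0.0585, 0.0962, 0.0936 and 0.0672).

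**Figure D3:**
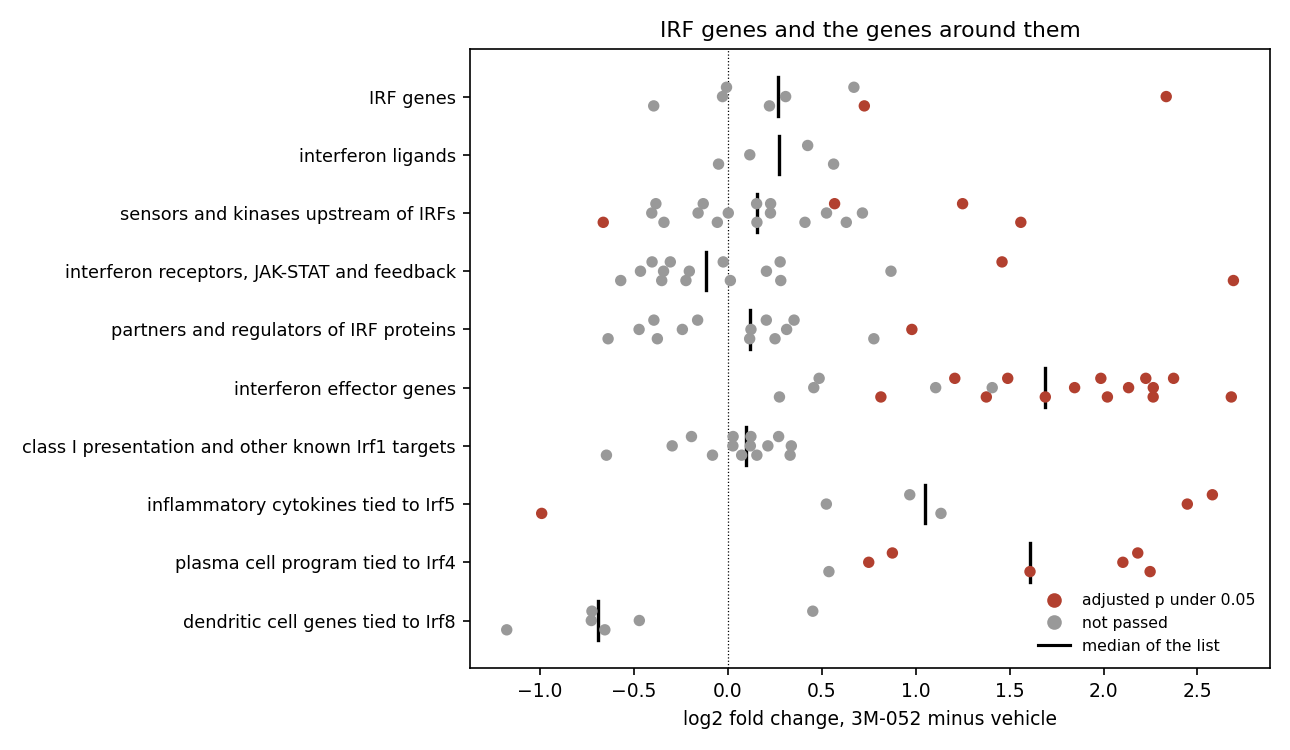
Log2 fold change (3M-052 minus vehicle) of the 8 IRF genes and of the tested genes of 9 lists around them, 1 point per gene, red where the adjusted p was under 0.05, with a line at each median. The effector list has its median at 1.69 and the plasma cell list at 1.61, while Irf1 targets lie around 0.10.

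The 5 genes most like Irf4 over the 8 arrays were Fen1, Daxx, Sass6, Rasal1 and Armh3, with root mean square differences of 0.10, 0.12, 0.13, 0.13 and 0.13 against a median of 0.52 over 10535 genes. Fen1 cuts flaps in DNA replication, Daxx is a histone chaperone, Sass6 builds centrioles and Rasal1 switches off Ras. Here too the measure keeps the difference between groups, so it favors genes that are higher. Fen1 was higher by 0.80 (adjusted p = 0.0412 by limma) and Daxx by 0.66 (adjusted p = 0.0498), and both calls were lost in several fits with an array left out (5 of 8 for Fen1, up to 0.137, and 7 of 8 for Daxx, up to 0.157). The other 3 did not pass, though Rasal1 did in the blocked fit, at a log2 fold change of 0.68 (adjusted p = 0.0425 by limma).

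The treated nodes differed among themselves in the same direction for most of the family. 3M-052 replicate 3 was the highest of its group for 7 of the 8 IRF genes, all but Irf5, while it was highest for 33% of all genes. 3M-052 replicate 1 was the lowest for Irf1, Irf2, Irf3 and Irf5, and it was lowest for 29.8% of all genes. Among vehicle nodes, replicate 2 was highest for 5 genes (Irf1, Irf5, Irf7, Irf8 and Irf9) and replicate 1 lowest for 5 (Irf1, Irf3, Irf5, Irf7 and Irf9), where these arrays held those places in 23% and 20% of all genes. 3M-052 replicate 3 also had the lowest T cell marker level, 10.84, against 11.29 to 11.37 in the other 3M-052 nodes, and the lowest fat marker level, 5.75. The part of these levels in its IRF values was not tested. Without it, Irf7 had a log2 fold change of 2.22 and Irf8 one of 0.46.

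**Figure D4:**
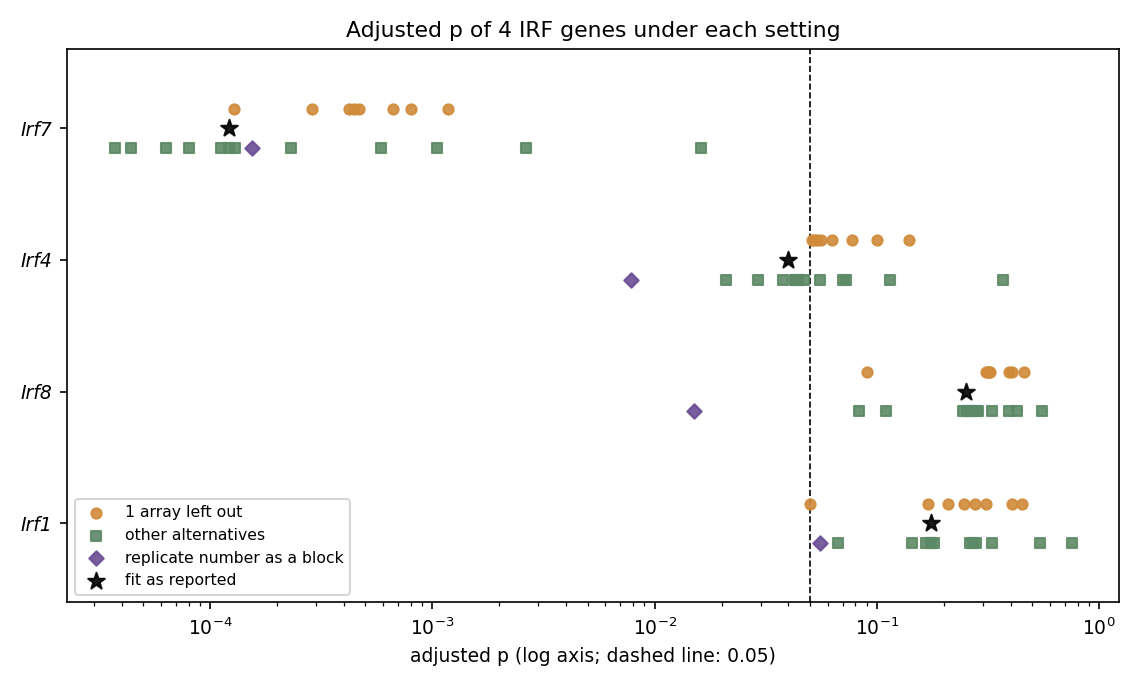
Adjusted p (log axis) of Irf7, Irf4, Irf8 and Irf1 in the fit as reported and under 21 alternatives, with the dashed line at 0.05. Irf7 passed in all 21, Irf4 in 8 of 21, Irf8 only when replicate number was a block, and Irf1 only without 3M-052 replicate 3.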

How the data were processed

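Total RNA of 8 lymph nodes was amplified, biotin-labeled and hybridised to Illumina mouse whole-genome bead arrays. The authors deposited a table of non-normalized intensity for 45281 probes, summarized with GenomeStudio per the labels (version not given in the sources used here), with a detection p-value per probe and array that their software computed, and a second table of 21765 probes whose intensity they had normalized by a method that stays unknown here. Each column of the second table correlated best with its own array of the first (8 of 8, at least 0.984 on the log2 scale). Column medians were 115, 123, 123 and 118 for the 3M-052 mice 1 to 4 and 125, 126, 123 and 119 for the vehicle mice 1 to 4, and it was used as an alternative only.

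The neqc function of limma 3.58.1 (R 4.3.3) was run on the non-normalized table with an offset of 16, which corrects background through the detection p-values, quantile normalizes and takes log2. A probe was kept where at least 4 of 8 arrays had a detection p below 0.05. The test was limma's lmFit and eBayes, with the variance allowed to trend with intensity, and adjustment followed Benjamini and Hochberg over all 19462 kept probes, with 0.05 as threshold. The fit and its adjustment were tested on simulated data, drawn independently for each array around values already normalized and filtered. Background correction, normalization and the filter were not tested in this way. The number of arrays, 4 per group, limits the precision. A gene was read by its brightest kept probe. Names came from the platform's annotation, updated by gene identifier to RefSeq (18216 probes with 1 gene, 8 with several), and 3048 kept probes had no name. The text names every IRF probe, up to 3 genes called in each direction per list and the 5 genes nearest to each called IRF gene. Other genes were added after their values were seen. They are Stat2, Tbk1, Myd88, Batf, Tap1, Cadm1, Tlr11, Cd3g, Jak2, Oas3, Tnfrsf17, Adgre1, Csf1r, Lyz2, Cd14, Ifna1, Ifng and those called with the block alone. Members and lists were chosen with earlier results of these data known.

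The study's methods used an unpaired test, so the fit had no block. The labels number mice 1 to 4 in both groups without saying what a number marks. Arrays of the same number deviated together, with correlations of 0.186, 0.426, 0.250 and 0.573 for numbers 1 to 4, and each array correlated best with its own number, so the fit with the replicate number as a block is given wherever it changes a call. The other alternatives were median centering, no or another background correction, no or a stricter filter, no trend, array weights, the methods' t-test, the fat marker level as a covariate, the second table, the mean of a gene's probes, and leaving out each array. Leaving out both arrays numbered 4 was added after seeing the data.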

Additional observations from a re-analysis of the deposited data

Results flagged for a closer look

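Of 122 groups of 4 arrays examined, 8 held an array whose gap to the nearest other array, as a share of the group's range, was above Dixon's critical value at the 95% level, and chance flags about 1 in 20 groups. In 6 of them the array was 3M-052 replicate 3. It was the highest of its group for Irf4 (share 0.859, 10.47 against 9.93 for the next array), for the helicase Dhx58 (0.871, 11.07 against 10.11), for the kinase Ikbke (0.876, 8.42 against 8.18), for the protease Usp18 (0.918, 13.05 against 11.87) and for the nuclease Fen1 (0.907, 11.90 against 11.11), and the lowest for the mean of the T cell markers (0.863, 10.84 against 11.29). Without this array Irf4 had a log2 fold change of 0.58 and an adjusted p of 0.0524 by limma. Fen1 was picked for its likeness to Irf4 over these same arrays, so its flag is not separate from that of Irf4.

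In the vehicle group, replicate 4 was the lowest for Irf8 (0.854, 9.38 against 10.37), and without it the log2 fold change of Irf8 was 0.41 (adjusted p = 0.405 by limma). Vehicle replicate 2 was the lowest for Armh3 (0.863, 7.19 against 7.51).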

How the results depend on the processing

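Of the 8 IRF genes, Irf7 was the only one called under all 21 alternatives that gave an adjusted p, with a log2 fold change of 2.08 to 2.45 and an adjusted p (limma or the methods' t-test) of 3.7e-05 to 0.0161. Irf4 was called in 8 of 21 (0.58 to 0.87), Irf8 in 1 (0.40 to 0.93) and Irf1 in 1 (-0.52 to -0.11), with 1 direction throughout for each of the 4. Irf5 and Irf9 were positive in all and called in none. Irf2, near 0, turned positive with median centering (0.29), the authors' normalized table (0.0021), without 3M-052 replicate 1 (0.079) or 4 (0.023), without vehicle replicate 2 (0.00093) or 3 (0.011) and without both arrays numbered 4 (0.0024), and with 1 array left out it ranged from -0.077 to 0.079. Irf3 turned positive with median centering (0.21), array weights (0.040), without vehicle replicate 4 (0.059) and without both arrays numbered 4 (0.051), ranging from -0.095 to 0.059 with 1 array left out. None of these passed, and the cause was not tested.

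The count of IRF genes called higher, 2, was 1 without a filter on dim probes, without the variance trend, with the methods' t-test after adjustment, with the fat marker level as a covariate and without both arrays numbered 4. With 1 array left out it was 1 to 1 for higher and 0 to 1 for lower, from fewer samples. Blocking on replicate number gave 3 higher and 0 lower.

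Over all kept probes, 546 higher and 446 lower became 838 and 869 with array weights, 1232 and 1499 when blocked by replicate number, 118 and 98 with the methods' t-test after adjustment, 1486 and 2176 by that test without it, and 158 and 27 with the fat marker covariate. Without a filter 255 were lower. With 1 array left out, 283 to 670 were higher and 118 to 683 lower. Higher calls made up 55.0% of calls, 65.7% with median centering, where the median over all probes was 0.04 in place of -0.01. Of the lists, effector genes had 5 called higher with the methods' t-test after adjustment and 6 with the fat covariate, against 14, and plasma cell genes 0 in both, against 6. With median centering Cd3e, Thy1 and Cd8b1 did not pass.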
